A study of Mus musculus with 12 samples.

Results

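The microvillus cytoskeleton and adhesion genes described here are Vil1, Espn, Eps8, Ezr, Pdzk1, Myo1a, Myo7b, Ush1c, Cdhr2 and Cdhr5. They were taken by gene symbol, and all 10 were found among the 14082 gene symbols used. All 10 also passed the filter on low values (at least 1 FPKM in at least 4 libraries), which 12962 symbols passed, and each was at 1 FPKM or more in all 12 libraries. FPKM is the number of sequenced fragments scaled for transcript length and for the size of the library, so levels of different genes can be set side by side.

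RNA was sequenced from Lgr5-GFP+ cells sorted from the intestinal epithelium of C57BL/6 mice, with 4 libraries per genotype and 12 in all. All mice carried Lgr5-CreERT2-ires-eGFP, in which the Lgr5 locus drives both the reporter used for the sort and the tamoxifen-inducible Cre. Apc_WT denotes mice with Apc+/+, Apc_HET those with 1 floxed allele (ApcFlox/+), and Apc_KO those with both alleles floxed (ApcFlox/Flox). Every genotype, including the control, received 1 tamoxifen injection and 5 days of tamoxifen diet, and RNA was taken at day 15. Animal age is not given in the sources used here, and the series names 4 mice per genotype without tying each library to a mouse. P-values therefore measure the spread between these libraries.

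Microvilli are finger-like protrusions of the apical membrane, each built around a bundle of parallel actin filaments. Villin, espin and EPS8 bundle or cap the filaments, while ezrin and myosin-1a tie the bundle to the membrane. Neighbouring microvilli are joined at their tips by the protocadherins CDHR2 and CDHR5, which are anchored inside the cell by the scaffold harmonin (Ush1c) and the motor myosin-7b. In the intestine these structures form the brush border, which is densest on mature enterocytes.

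Total FPKM per library ran from 391710 to 518428. The tables give no fragment counts, so absolute depth is unknown. Lgr5, the gene behind the sort, was present in all 12 libraries, with a range of 20.2 to 30.0 FPKM across Apc_WT, of 21.3 to 31.6 across Apc_HET and of 27.0 to 65.4 across Apc_KO. The targeted gene, Apc, ranged from 6.91 to 10.5 FPKM across Apc_WT, from 9.81 to 12.5 across Apc_HET and from 9.94 to 17.3 across Apc_KO; a total over the whole gene does not show whether the floxed segment was removed. The Apc_KO libraries differed among themselves, since 17 S phase and mitosis markers summed to 376 and 501 FPKM in replicates 1 and 4 and to 922 and 970 in replicates 2 and 3, against 637 to 942 in Apc_WT. In sorted bulk cells, fewer cells of a type and less RNA per cell cannot be told apart.

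Stretches of reference sequence for 3 genes are shown because they lie directly upstream of Vil1 and Cdhr2, which were lower in Apc_KO, and of Ezr, which was higher. Each is the 250 bases before the RefSeq start site on GRCm38.p6, written 5′ to 3′ on the strand of the gene, with any motif match in capitals. The Vil1 stretch lies at chr1:74409134-74409383 on the plus strand and holds a match to the SRF CArG box that begins 73 bases before the start site.
Vil1: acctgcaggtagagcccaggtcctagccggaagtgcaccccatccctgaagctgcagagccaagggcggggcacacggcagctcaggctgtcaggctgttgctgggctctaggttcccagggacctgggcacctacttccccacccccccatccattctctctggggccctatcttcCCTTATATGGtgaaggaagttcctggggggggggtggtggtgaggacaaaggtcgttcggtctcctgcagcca
The Cdhr2 stretch lies at chr13:54701213-54701462 on the plus strand and holds a match to the HNF1 motif that begins 54 bases before the start site.
Cdhr2: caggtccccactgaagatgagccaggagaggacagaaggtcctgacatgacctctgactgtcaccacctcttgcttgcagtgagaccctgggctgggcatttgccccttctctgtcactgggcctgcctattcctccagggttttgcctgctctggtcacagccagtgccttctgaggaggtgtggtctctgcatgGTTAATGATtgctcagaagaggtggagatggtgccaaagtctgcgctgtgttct
The Ezr stretch lies at chr17:6782781-6783030 on the minus strand and held no match to the motifs searched.
Ezr: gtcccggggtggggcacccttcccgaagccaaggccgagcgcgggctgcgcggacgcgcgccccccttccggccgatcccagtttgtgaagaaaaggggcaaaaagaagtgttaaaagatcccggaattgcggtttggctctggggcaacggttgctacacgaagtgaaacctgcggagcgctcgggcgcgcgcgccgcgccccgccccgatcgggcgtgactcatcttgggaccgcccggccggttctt

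The search covered both strands of windows from 250 bases before to 50 bases after the start site, and RefSeq gave 11 such windows for 8 of the 10 genes. The motifs were HNF4 (CAAAGTCCA), CDX (GCNATAAA), HNF1 (GTTAATNAT), TCF/LEF (CTTTGAT) and the SRF CArG box. A CArG box is in 1.63% of all 32851 windows and the HNF1 motif in 0.801%. Pdzk1 held an HNF4 match beginning 14 bases after a start site, a motif found in 0.475% of windows, and 1 of the Espn windows held a CDX match, found in 2.66%. The bases after that Pdzk1 start site were not found in an annotated transcript of the gene, so this window is not settled. The other Pdzk1 window held no match. No window of the 8 genes held the TCF/LEF letters, which occur in 3.73% of windows. The windows of Myo1a, Cdhr5 and Ush1c, which were also lower in Apc_KO, held no match to any of these motifs. Whether the matches go with the direction of change was not tested. Ezr had the highest GC content before its start site of the 3 sequences shown, at 67.2%, against 62.8% for Vil1 and 56.0% for Cdhr2. A match is a description of the letters, and binding was not measured.

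In Apc_KO the microvillus genes moved in opposite directions. Compared with Apc_WT, 7 of 10 were lower (Vil1, Pdzk1, Myo1a, Myo7b, Ush1c, Cdhr2 and Cdhr5), 2 were higher (Ezr and Eps8), and Espn did not pass the test (limma on log2(FPKM + 1), Benjamini-Hochberg adjusted p under 0.05 over all 12962 genes). Over all genes 45.5% were called in this comparison, 27.9% higher and 17.7% lower, so 2 of 10 higher was no larger a share than among all genes. Among the log2 differences of all genes, Ezr stood at the 81.7th and Eps8 at the 76.5th percentile. The 7 lower genes stood between the 1.76th (Myo1a) and the 18.7th (Myo7b). The median difference of the 10 genes was -1.11 on the log2 scale, beside 0.12 for all genes. Library values of the 2 genotypes did not overlap for 2 genes that were higher and 5 that were lower, where 24.3% and 16.0% of all genes were so separated.

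**Figure D1:**
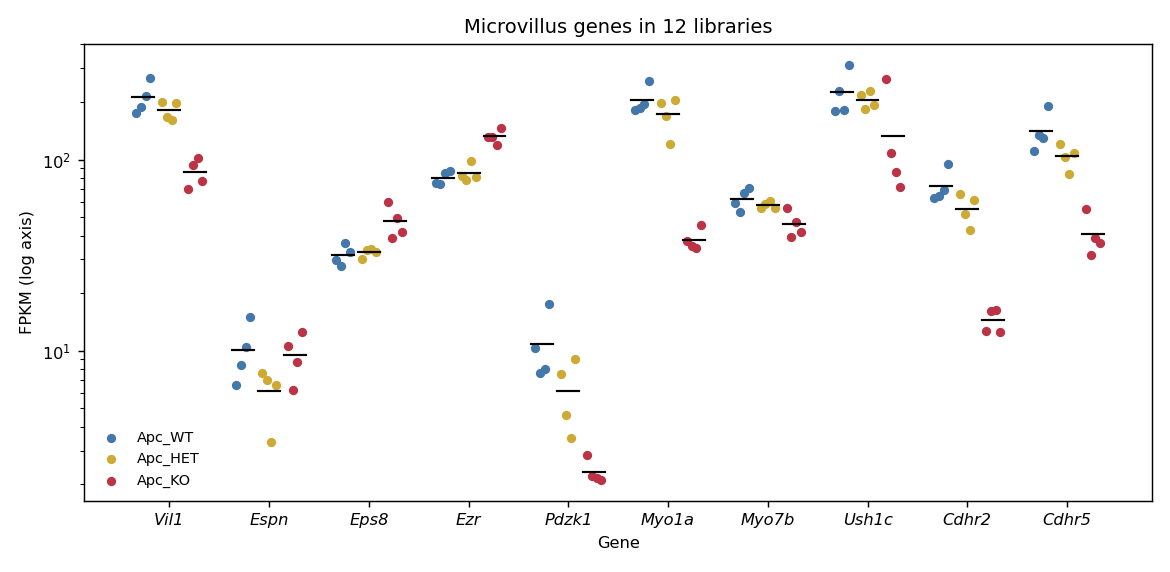
FPKM on a log axis for each of the 10 genes (x axis) in the 12 libraries, as 1 point per library coloured by genotype, with a black bar at the genotype mean. The Apc_KO points lie below all Apc_WT points for Vil1, Pdzk1, Myo1a, Cdhr2 and Cdhr5 and above them for Ezr and Eps8.

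The adhesion genes were all lower in Apc_KO, by very different amounts. Cdhr2 (chr13:54701463-54736662), a protocadherin of the link between microvillus tips, read 63.2, 64.2, 69.5 and 94.8 FPKM in Apc_WT replicates 1 to 4. It read 66.0, 52.0, 42.6 and 61.0 in Apc_HET and 12.7, 16.0, 16.3 and 12.6 in Apc_KO. Every Apc_KO library was far below every other library, and the Apc_KO mean was 19.8% of the Apc_WT mean. The log2 difference was -2.25 (SE 0.17, limma adjusted p = 5.83e-07).

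Cdhr5 (chr7:141269080-141276795) encodes the mucin-like protocadherin that pairs with CDHR2. Its FPKM was 110, 134, 129 and 190 in Apc_WT, 120, 103, 84.3 and 108 in Apc_HET and 54.8, 31.8, 39.0 and 36.7 in Apc_KO. The Apc_KO libraries again lay below all 8 others, with replicate 1 the highest of the 4. The difference from Apc_WT was -1.77 (SE 0.20, limma adjusted p = 1.45e-05), and the Apc_KO mean was 28.8% of the Apc_WT mean. The tables list Cdhr5 in 2 rows of the same locus, which fell from 99.7 ± 26.2 to 27.8 ± 2.32 FPKM and from 41.1 ± 10.1 to 12.8 ± 8.38 (mean ± SD, n = 4); the tables do not say how the rows differ, and they were summed.

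Ush1c (chr7:46195350-46238490) encodes harmonin, the PDZ scaffold beneath the protocadherins. It read 179, 227, 182 and 313 FPKM in Apc_WT, 216, 183, 228 and 194 in Apc_HET and 263, 108, 85.9 and 71.6 in Apc_KO. Apc_KO replicate 1 stood inside the Apc_WT range while the other 3 Apc_KO libraries were below all Apc_WT libraries. The difference was -0.92 (SE 0.34, limma adjusted p = 0.0411), with a 95% interval from -1.66 to -0.19. The call ended in 9 of 21 alternatives. It ended without Apc_WT replicate 2 (-0.91, adjusted p = 0.0801) or 4 (-0.75, 0.115), without Apc_KO replicate 2 (-0.90, 0.0819), 3 (-0.79, 0.105) or 4 (-0.70, 0.109), and without Apc_KO replicates 2 and 3 together (-0.67, 0.229). Without Apc_KO replicate 1 the difference was -1.32 (adjusted p = 0.000447). The other 3 were quantile normalization (-0.91, 0.0647), a fit of the 2 genotypes alone (-0.92, 0.0895) and the replicate number as a block (-0.92, 0.0616).

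Myo7b (chr18:31959234-32036931) encodes the motor of the same complex. Its values were 59.5, 52.9, 66.6 and 70.7 FPKM in Apc_WT, 55.9, 58.6, 60.8 and 55.5 in Apc_HET and 55.4, 39.5, 47.3 and 41.8 in Apc_KO. The Apc_KO range overlapped that of Apc_WT through replicate 1 alone. The difference was small, at -0.44 (SE 0.12, limma adjusted p = 0.0118), and without Apc_KO replicates 2 and 3 it was -0.36 and missed the threshold (adjusted p = 0.0729).

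Among the genes of the actin core, the direction differed from gene to gene. Vil1 (chr1:74409384-74435560), which encodes villin, read 176, 188, 215 and 268 FPKM in Apc_WT, 199, 167, 161 and 197 in Apc_HET and 69.9, 93.6, 102 and 77.1 in Apc_KO. No Apc_KO library reached the lowest of the other 8. The fall was -1.29 (SE 0.16, limma adjusted p = 4.50e-05), to 40.4% of the Apc_WT mean.

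Eps8 (chr6:137477245-137649397), which encodes an actin capping and bundling protein of the microvillus tip, went the other way. It read 29.8, 27.8, 36.6 and 33.0 FPKM in Apc_WT, 30.3, 33.6, 33.8 and 32.8 in Apc_HET and 60.0, 38.7, 49.1 and 41.9 in Apc_KO. All 4 Apc_KO libraries were above the other 8, replicate 1 most of all. The rise was 0.55 (SE 0.13, limma adjusted p = 0.00524), from 31.8 ± 3.85 to 47.4 ± 9.47 FPKM (SD, n = 4). A second row under this symbol, at a 319-base locus outside the annotated gene, gave at most 1.74 FPKM in any library, and without it the difference was 0.54.

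Espn (chr4:152120331-152152414), which encodes the actin bundler espin, was among the lowest of the 10. It read 6.59, 8.39, 10.5 and 15.0 FPKM in Apc_WT, 7.65, 7.0, 3.31 and 6.60 in Apc_HET and 10.6, 6.20, 8.75 and 12.5 in Apc_KO. The 3 genotypes overlapped. The Apc_KO minus Apc_WT value was -0.06 with a 95% interval from -0.67 to 0.55 (limma adjusted p = 0.877), which covers a fall or a rise of moderate size, and its sign turned when Apc_WT replicate 4 (0.13) or Apc_KO replicate 2 (0.11) was left out.

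The genes that link actin to the membrane held both the largest fall and the largest rise of the 10. Myo1a (chr10:127703436-127720940), which encodes the main membrane-binding myosin of the brush border, read 183, 185, 195 and 257 FPKM in Apc_WT, 199, 168, 120 and 205 in Apc_HET and 37.4, 35.2, 34.3 and 45.2 in Apc_KO. The 4 Apc_KO libraries were close to each other and far below the rest. The difference was -2.39 (SE 0.18, limma adjusted p = 6.32e-07), and the Apc_KO mean was 18.5% of the Apc_WT mean. Its 2 rows of the same locus fell from 168 ± 27.5 to 30.6 ± 1.83 FPKM and from 37.0 ± 9.83 to 7.39 ± 3.69 (SD, n = 4).

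Ezr (chr17:6738131-6782780) encodes ezrin, which binds both actin and membrane proteins and marks nearly all epithelial microvilli. It read 75.6, 74.3, 84.7 and 87.2 FPKM in Apc_WT, 81.9, 78.0, 98.2 and 81.4 in Apc_HET and 132, 131, 119 and 146 in Apc_KO. All Apc_KO libraries were above all others. The rise was 0.71 (SE 0.11, limma adjusted p = 0.000217), and the Apc_KO mean was 164% of the Apc_WT mean on the linear scale.

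Pdzk1 (chr3:96829456-96870926), which encodes a PDZ scaffold for apical transporters, read 10.3, 7.61, 8.05 and 17.4 FPKM in Apc_WT, 7.55, 4.61, 3.49 and 9.0 in Apc_HET and 2.85, 2.21, 2.15 and 2.10 in Apc_KO. The Apc_KO libraries were the 4 lowest. The difference was -1.77 (SE 0.28, limma adjusted p = 0.000244). Its 2 rows of the same locus differed in how much they fell: one went from 4.85 to 14.9 FPKM in Apc_WT down to 0.346 to 0.722 in Apc_KO, the other from 2.57 to 3.19 down to 1.49 to 2.29. With the more abundant row alone the log2 difference was -2.45 (adjusted p = 0.000301), and with a pseudocount of 5 on the summed values it was -1.07 and still called.

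The deposited loci of Vil1, Ezr, Cdhr2 and Pdzk1 also span a neighbouring protein-coding gene (Usp37, Sytl3, Gprin1 and Gpr89), and how fragments were divided there was not tested. The direction and the call of Vil1, Ezr, Eps8, Myo1a, Cdhr2, Cdhr5 and Pdzk1 in Apc_KO against Apc_WT were kept in all 21 alternatives. The median of all genes, 0.12 with the deposited values, was 0.01 after division by size factors and -0.02 after quantile normalization, and the share of called genes that were higher went from 61.2% to 50.7% and 47.6%. The rises of Ezr and Eps8 were called under both scalings.

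**Figure D2:**
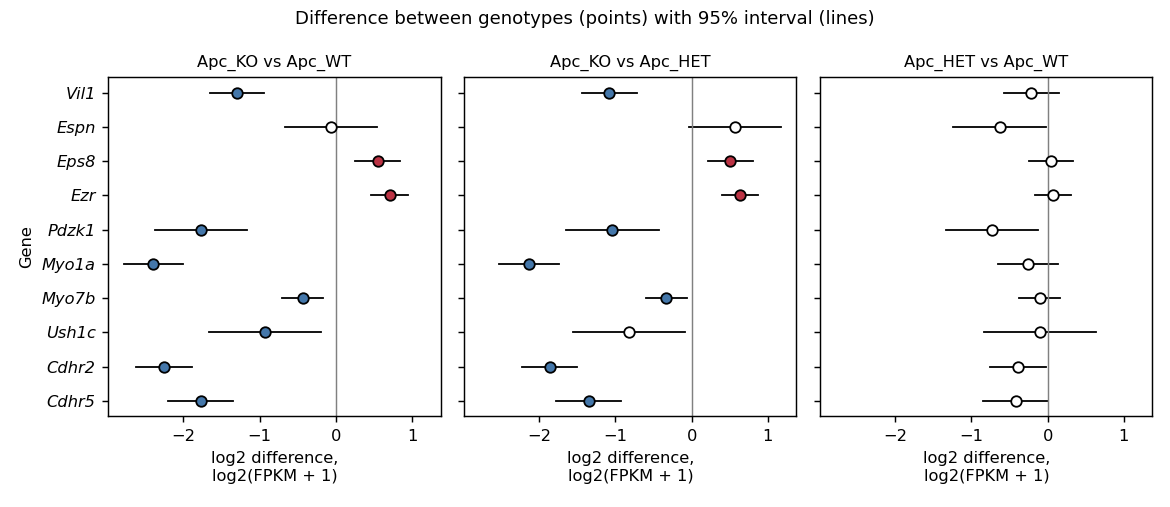
Difference in log2(FPKM + 1) (x axis) for each gene in the 3 comparisons, with points for the limma estimate and lines for its 95% interval; red is called higher, blue called lower and white not called. In Apc_KO the estimates run from -2.39 for Myo1a to 0.71 for Ezr against Apc_WT, whereas no gene was called in Apc_HET against Apc_WT.

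Loss of the second Apc copy was addressed by comparing Apc_KO with Apc_HET, which shares the Apc_KO libraries with the comparison above. Of the 10 genes, 6 were lower, 2 were higher, and Ush1c and Espn did not pass, where 41.8% of all genes were called (22.8% higher and 18.9% lower). Myo1a fell by 2.13 (SE 0.18, limma adjusted p = 1.82e-06) and Cdhr2 by 1.86 (SE 0.17, adjusted p = 3.02e-06). Cdhr5 fell by 1.35 (SE 0.20, adjusted p = 0.000141), Vil1 by 1.08 (SE 0.16, adjusted p = 0.000208) and Pdzk1 by 1.04 (SE 0.28, adjusted p = 0.0097). Ezr rose by 0.63 (SE 0.11, adjusted p = 0.000563) and Eps8 by 0.51 (SE 0.13, adjusted p = 0.00946). These 7 genes and Myo7b did not overlap between the genotypes, which was the case for 39.5% of all genes. For Pdzk1 the call ended without Apc_KO replicates 2 and 3 (-0.98, adjusted p = 0.0556).

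The Myo7b difference from Apc_HET, -0.33, was just past the threshold (SE 0.12, limma adjusted p = 0.047). The lowest Apc_HET library (55.5 FPKM) was barely above the highest Apc_KO library (55.4). The call ended when any 1 Apc_HET library was left out (-0.35 to -0.31) and without Apc_KO replicate 2 (-0.26), 3 (-0.35) or 4 (-0.29). The Ush1c value was -0.82 (SE 0.34, adjusted p = 0.0691); without Apc_KO replicate 1 it was -1.22 and called (adjusted p = 0.00085). Espn read 0.57 higher in Apc_KO than in Apc_HET, with a 95% interval from -0.04 to 1.18 (adjusted p = 0.123).

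Loss of a single Apc copy was addressed by comparing Apc_HET with Apc_WT. None of the 10 genes was called, and neither was any other gene (0.00% of 12962 by limma, with 561 genes at an unadjusted p under 0.05). Of the 10 values, 8 were below 0, with a median of -0.24 beside 0.07 for all genes, and none of the 10 was without overlap between the genotypes, as against 6.08% of all genes (5.46% higher and 0.617% lower). The values furthest from 0 were those of Pdzk1 (-0.73, with a 95% interval from -1.33 to -0.12), Espn (-0.63, from -1.24 to -0.02) and Cdhr5 (-0.42, from -0.84 to 0.01), each with a limma adjusted p of 0.987. The 95% interval of the Vil1 difference ran from -0.57 to 0.15 and that of Ezr from -0.16 to 0.31. For 9 of the 10 genes the Apc_HET mean lay between those of Apc_WT and Apc_KO, and for 8 of these 9 it was nearer to Apc_WT. Pdzk1 was the exception, and Espn was lowest in Apc_HET. How many of all genes share this order was not counted, and the order was not tested.

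The order of levels changed with genotype. In Apc_WT, Ush1c (225 ± 62.6 FPKM), Vil1 (212 ± 41.1) and Myo1a (205 ± 35.2) were highest, with library ranges that overlapped. Cdhr5 followed at 141 ± 34.4, then Ezr at 80.5 ± 6.43, Cdhr2 at 72.9 ± 14.8, Myo7b at 62.4 ± 7.85 and Eps8 at 31.8 ± 3.85. Pdzk1 (10.8 ± 4.55) and Espn (10.1 ± 3.62) were lowest and overlapped (SD, n = 4 throughout). Apc_WT neighbours in this order were separated only between Cdhr5 and Ezr, Myo7b and Eps8, and Eps8 and Pdzk1. Within each Apc_WT library, Vil1, Myo1a and Ush1c were above the 97.7th percentile of the genes tested.

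Apc_HET held nearly the same order, with Ush1c at 205 ± 20.9 FPKM, Vil1 at 181 ± 19.9 and Myo1a at 173 ± 38.5 on top. Cdhr2 (55.4 ± 10.3) and Myo7b (57.7 ± 2.46) changed places but overlapped. In Apc_KO, Ush1c (132 ± 88.3) and Ezr (132 ± 11.2) were highest and overlapped, since Ezr exceeded Ush1c in 3 of 4 libraries. Vil1 (85.6 ± 14.7) was separate from both Ezr above and Eps8 (47.4 ± 9.47) below. Myo7b (46.0 ± 7.09), Cdhr5 (40.6 ± 9.96) and Myo1a (38.0 ± 4.95) followed with overlapping ranges, then Cdhr2 (14.4 ± 2.05), Espn (9.51 ± 2.68) and Pdzk1 (2.33 ± 0.353), each separate from the next. Cdhr2 went from between the 91.2nd and 94.1st percentile of its libraries in Apc_WT to between the 51.2nd and 59.0th in Apc_KO.

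Shares of the summed FPKM of the 10 genes show the same change of make-up. Ezr made up 7.78 ± 0.949% of the sum in Apc_WT, 9.44 ± 1.57% in Apc_HET and 24.6 ± 4.66% in Apc_KO (SD, n = 4). Myo1a went from 19.6 ± 0.637% in Apc_WT to 7.11 ± 1.61% in Apc_KO, and Eps8 from 3.08 ± 0.535% to 8.66 ± 0.845%. The share of Ush1c averaged 21.2% in Apc_WT and 22.7% in Apc_KO, but ran from 14.7% to 37.6% among the Apc_KO libraries. The ratio of Ezr to Vil1 was 0.431, 0.395, 0.393 and 0.325 in Apc_WT, 0.411, 0.467, 0.611 and 0.413 in Apc_HET and 1.89, 1.40, 1.17 and 1.90 in Apc_KO. Ezr was thus above Vil1 in all 4 Apc_KO libraries and below it in the other 8; this ratio was chosen after its values were seen and was not tested.

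**Figure D3:**
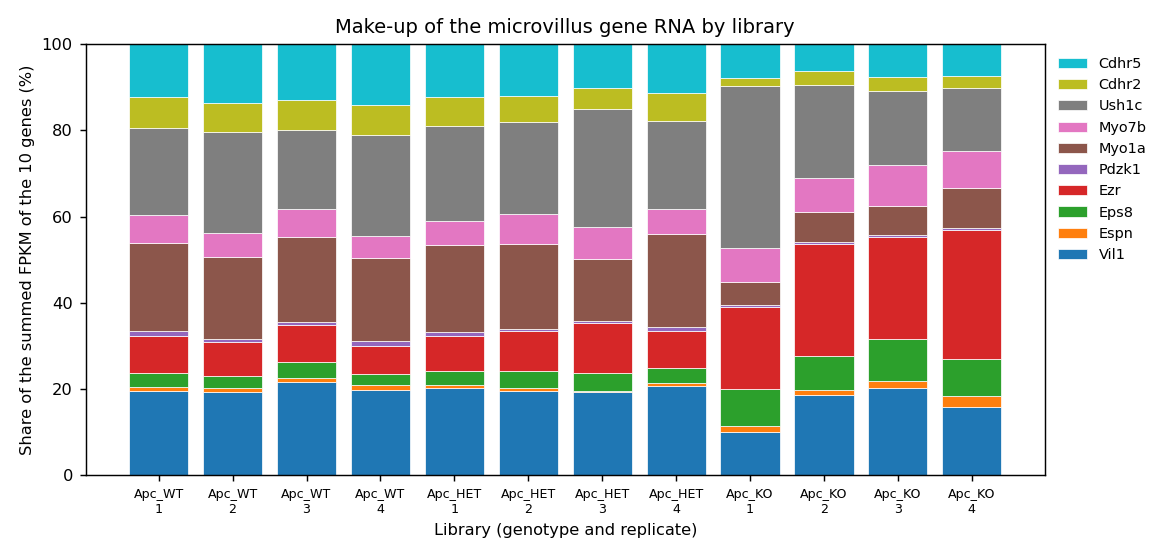
Stacked bars of the share of each gene in the summed FPKM of the 10 genes (y axis, %), with 1 bar per library ordered by genotype and replicate. Ezr widens from 7.78% on average in Apc_WT to 24.6% in Apc_KO while Myo1a narrows from 19.6% to 7.11%, and Ush1c takes 37.6% of Apc_KO replicate 1.

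Across the 12 libraries the genes that fell most moved together. Over log2(FPKM + 1), the closest partner of Vil1 was Cdhr2 (Pearson r = 0.987), that of Myo1a was also Cdhr2 (0.983), that of Cdhr5 was Myo1a (0.960) and that of Pdzk1 was Cdhr5 (0.927). Ezr and Eps8 were each other's closest partner (0.811). Espn had no partner above 0.299, its value with Eps8. These values are descriptions over 12 libraries that include the genotype differences above, and 18 of the 45 pairs had a negative r. After the mean of each genotype was taken out, Eps8 and Myo7b were closest (0.921), followed by Vil1 and Cdhr2 (0.917), and the partner of Espn was Myo1a (0.868). For Ezr and Eps8 r was then only 0.127. It was 0.653 for Myo1a and Cdhr2, 0.613 for Cdhr5 and Myo1a and 0.687 for Pdzk1 and Cdhr5. The median r of the 45 pairs was 0.287, with 9 negative, beside a median of 0.299 before the means were taken out.

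Genes outside the 10 with the profile most like their mean standardised profile included Cx3cl1 (Pearson r = 0.955), Mfsd9 (0.947) and Slc36a1 (0.939), out of all genes tested and over 12 libraries. With genotype means taken out the closest was Eps8l2 (0.977), a relative of Eps8, and others were Cx3cl1 (0.913), Slc40a1 (0.901) and Med15 (0.891). Eps8l2 itself read 32.1 ± 7.84 FPKM in Apc_WT and 30.2 ± 3.98 in Apc_KO and was not called (-0.07, limma adjusted p = 0.753). Its likeness therefore concerns the spread among libraries of a genotype.

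Enterocyte markers moved in the direction of most of the 10 genes. All 20 of the list (such as Fabp1, a fatty acid binding protein, and Mgam, a brush border glucosidase) were lower in Apc_KO than in Apc_WT, with a median of -2.65, and 17 of 20 were lower than in Apc_HET. Over all genes 17.7% and 18.9% were lower in these 2 comparisons. Slc2a2 was under 1 FPKM in every Apc_KO library and passed the filter on low values only with the other genotypes. Fabp1 averaged 625 ± 396 FPKM in Apc_WT and 54.9 ± 29.7 in Apc_KO (SD, n = 4). Summed per library, the list lay between 3243 and 6439 FPKM in Apc_WT, 1869 and 3802 in Apc_HET, and 535 and 753 in Apc_KO, and no marker was at 0 in every library of a genotype. None was called in Apc_HET against Apc_WT, where all 20 values were below 0 with a median of -0.85. The part of these markers in the falls of the microvillus genes was not tested.

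The library order within a genotype also matched in places. Apc_WT replicate 4 had the highest enterocyte marker sum and was the highest Apc_WT library for 9 of the 10 microvillus genes. Apc_HET replicate 3 had the lowest sum of its genotype and was lowest for 6 of the 10. For Ezr, Eps8, Myo7b and Ush1c it was instead the highest Apc_HET library. The share of all genes with these orders was not counted. In Apc_KO the order differed: replicate 1 had the highest sum of the 10 genes, 698 FPKM against 488 to 503 in the other 3, with an enterocyte sum of 569 in a range of 535 to 753. The excess of replicate 1 lay mainly in Ush1c. Without Apc_KO replicates 1 and 4 the counts against Apc_WT were 2 higher and 7 lower, and without replicates 2 and 3 they were 2 higher and 5 lower. Calls over all genes also depended on the setting. With all libraries 3613 genes were higher and 2291 lower, and over the 21 alternatives 2560 to 3993 were higher and 1803 to 3043 lower.

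**Figure D4:**
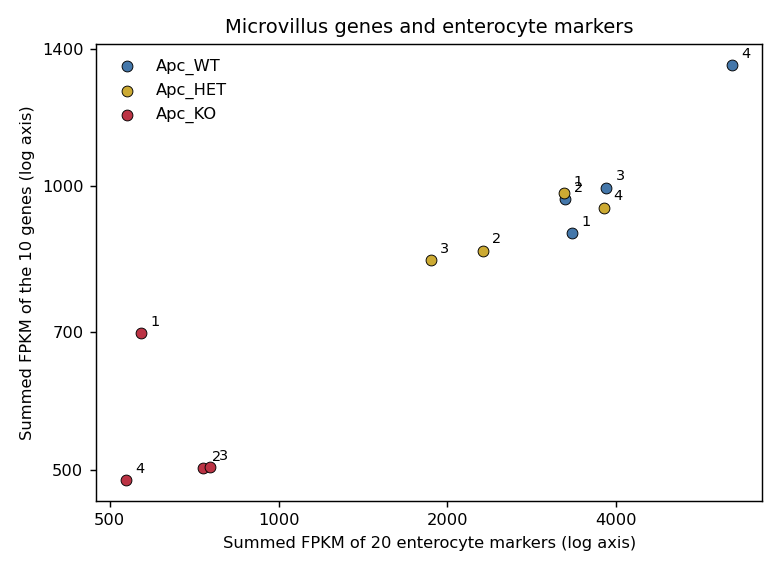
Summed FPKM of the 10 microvillus genes (y axis) against summed FPKM of 20 enterocyte markers (x axis), both on log axes, with 1 point per library coloured by genotype and numbered by replicate. Apc_KO libraries lie apart at the lower left, and Apc_KO replicate 1 (698 FPKM) stands above the other 3.

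Markers of other cells changed as well, beside 27.9% of all genes called higher and 17.7% called lower in Apc_KO against Apc_WT. In Apc_KO against Apc_WT, 9 of 9 goblet cell markers were lower (Fcgbp from 469 ± 145 to 40.5 ± 34.5 FPKM), as were 9 of 10 enteroendocrine and 10 of 11 tuft cell markers, while 2 of 7 Paneth cell markers were higher (Mmp7 and Pla2g2a) and 2 lower (Defa24 and Itln1). Of 13 stem cell markers 8 were higher and 1, Olfm4, was lower. Among 5 stroma and endothelium markers tested, Vim was higher (11.6 ± 5.48 to 121 ± 8.85 FPKM) and Pdgfrb lower, while Acta2, Cdh5 and Pdgfra passed the filter only with the Apc_KO libraries. That list summed to between 8.91 and 26.5 FPKM in Apc_WT, between 20.8 and 88.5 in Apc_HET and between 160 and 180 in Apc_KO. The leukocyte list summed to 6.67 to 73.7 FPKM in Apc_WT and 1.79 to 94.0 in Apc_KO, with Itgam called lower of 4 genes tested. Itgam and the tuft cell marker Alox5 were under 1 FPKM in every Apc_KO library and passed the filter only with the other genotypes. Of 17 S phase and mitosis markers, Mki67, Kif23, E2f2 and E2f8 were lower. Where these lists fall outside the rule for named genes, the genes were named after their values were seen. The part of these cells or states in the rises of Ezr and Eps8 was not tested.

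Other genes of the same structures were read from lists of related functions. Of all genes, 27.9% were called higher and 17.7% lower in Apc_KO against Apc_WT. Against Apc_HET these shares were 22.8% and 18.9%. Among partners of the adhesion complex and apical glycoproteins, 8 of 9 tested were lower in Apc_KO than in Apc_WT, with a median of -1.45. These include Ceacam20, which was under 1 FPKM in every Apc_KO library and passed the filter on low values only with the other genotypes. The largest were Muc3, a membrane mucin (-2.54, SE 0.33, limma adjusted p = 5.06e-05), Ceacam1, an adhesion molecule of the immunoglobulin family (-2.43, SE 0.32, adjusted p = 6.38e-05), and Anks4b, the ankyrin-repeat partner of harmonin and myosin-7b (-1.81, SE 0.16, adjusted p = 2.75e-06). Only Muc1 did not pass (0.22, adjusted p = 0.717). Calml4, a light chain of myosin-7b named after its value was seen, went from 85.4 ± 18.3 to 34.4 ± 16.7 FPKM. Against Apc_HET 8 of 9 were also lower, led by Muc3 (-2.65).

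Actin bundlers, tip proteins and membrane-bending proteins moved in both directions. Of 14 tested, 2 (Vill and Fscn1) passed the filter on low values only with the Apc_KO libraries, so they had to differ; of the other 12, 5 were higher and 4 lower, with a median of 0.23. The villin relative Vill averaged 0.632 ± 0.0847 FPKM in Apc_WT and 32.2 ± 14.3 in Apc_KO, and the bundler Fscn1 0.169 ± 0.0984 and 7.82 ± 2.41, as a description. The plastin Pls3 rose most of the others (2.86, SE 0.15, limma adjusted p = 3.87e-08, from 9.99 ± 1.83 to 79.0 ± 13.3). Avil, another villin relative named after its value was seen, was also higher (2.77, from 8.93 ± 1.11 to 69.0 ± 25.2). The intestinal plastin Pls1 was lower (-1.31, SE 0.16, adjusted p = 4.00e-05, from 73.7 ± 9.99 to 29.5 ± 6.00), as were the membrane-bending proteins Baiap2l2 (-2.03, from 697 ± 199 to 182 ± 91.5) and Baiap2l1 (-0.90). Against Apc_HET, 5 of the 12 were higher and 4 lower.

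Myosins and terminal web genes had 11 of 20 higher and 3 lower, with a median of 0.52, leaving out Myo5a, which passed the filter only with the Apc_KO libraries (0.448 ± 0.0993 FPKM in Apc_WT and 2.77 ± 0.440 in Apc_KO). Myh10, a non-muscle myosin heavy chain, was among those that rose most (1.86). Myo1d, a close relative of Myo1a, fell by 1.52 (SE 0.15, limma adjusted p = 7.25e-06), from 62.4 ± 8.17 to 21.3 ± 4.10 FPKM. Myo6 (-1.05) and Myh14 (-0.91) were the other 2 that were lower. Against Apc_HET, 10 of the 20 were higher and 3 lower.

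Around ezrin, 4 of 18 partners and apical kinases (Podxl, Stk26, Rdx and Msn) passed the filter only with the Apc_KO libraries and had to differ. Of the other 14, 4 were higher and 4 lower, with a median of 0.10. Over all genes, 27.9% were higher and 17.7% lower, with a median of 0.12, so these 14 stood near all genes. Slc9a3r2, a NHERF scaffold, rose by 1.63 (SE 0.18, limma adjusted p = 1.50e-05). Podxl, a sialomucin tied to ezrin through NHERF scaffolds, averaged 0.115 ± 0.0653 FPKM in Apc_WT and 6.75 ± 1.31 in Apc_KO, and Stk26, a kinase that phosphorylates ezrin and is listed under an older symbol, 0.228 ± 0.128 and 4.02 ± 1.09. Clic5 (-3.10), Pdzd3, a further PDZ scaffold of the brush border (-3.03, from 12.4 ± 3.19 to 0.655 ± 0.431 FPKM), and Tnik (-0.78) fell most. The ezrin paralogs Rdx and Msn, named after their values were seen, were under 1 FPKM in every Apc_WT library and averaged 2.60 ± 0.822 and 2.85 ± 2.21 FPKM in Apc_KO, far under Ezr. Against Apc_HET, 4 of the 14 were higher and 4 lower.

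The hair bundle of the inner ear uses relatives of the same adhesion complex. Of the 12 such genes listed, Cdh23, Pcdh15, Myo15, Tmc1 and Espnl had no entry among the gene symbols and could not be read. Among the 5 tested, Ush1g passed the filter only with the Apc_KO libraries. Of the other 4, 1 was higher and 2 lower. Ush1g, a scaffold that partners harmonin there and a relative of Anks4b, was listed at 0 in all 4 Apc_WT libraries and read 6.99, 24.6, 3.55 and 26.6 FPKM in Apc_KO, a description without a test. Cib2 was higher (1.70), while Myo7a, the relative of Myo7b (-1.82), and Whrn (-0.43) were lower. Against Apc_HET, 1 of the 4 was higher and 2 lower.

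Among 16 regulators linked to brush border genes, 9 were lower, 2 higher and 5 not called, with a median of -0.47. Over all genes 17.7% were lower and 27.9% higher. Vdr, the vitamin D receptor, fell by 3.95 (SE 0.35, limma adjusted p = 2.70e-06) from 175 ± 12.6 to 12.3 ± 8.18 FPKM. Creb3l3 (-2.52) and Hnf4g (-2.42) followed. Klf4 (0.85) and Mkl1 (0.31), a cofactor of SRF, were higher, and the count of higher regulators was 1 with either scaling and in several other alternatives. Srf itself was not called (0.52, SE 0.34, adjusted p = 0.239). Against Apc_HET, 11 were lower and 1 higher, led by Vdr (-4.15), where 18.9% of all genes were lower and 22.8% higher.

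**Figure D5:**
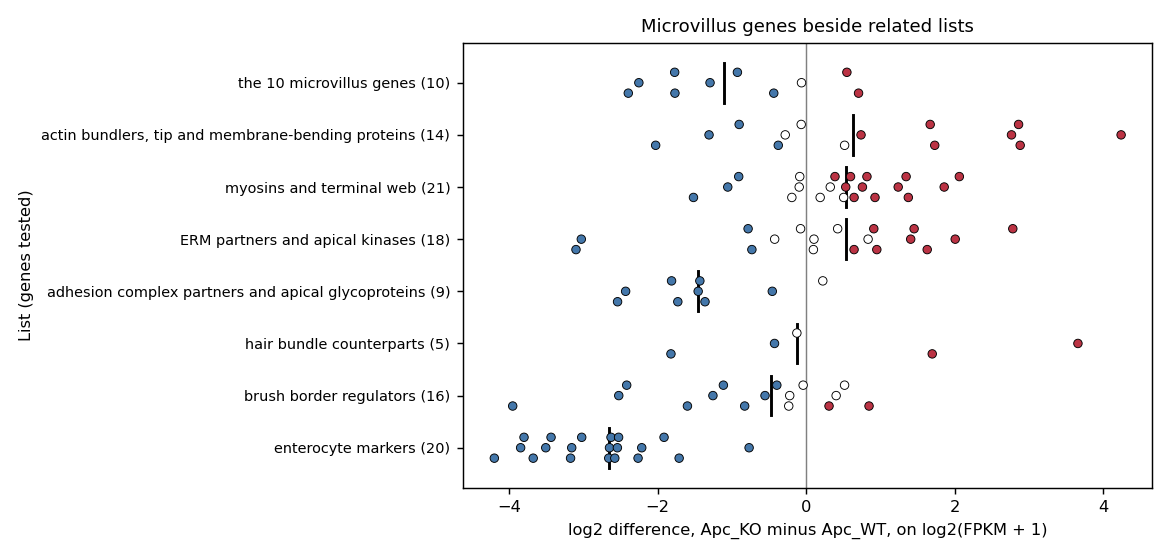
Difference in log2(FPKM + 1) between Apc_KO and Apc_WT (x axis) for each gene tested of the 10 microvillus genes, 6 related lists and the enterocyte markers (rows, with the number tested), red called higher, blue called lower, white not called, black bar the median. Adhesion partners (median -1.45) and enterocyte markers (-2.65) lie to the left, while actin bundlers, myosins and ezrin partners spread to both sides. The bars of these 3 lists and of the hair bundle genes include genes that passed the filter only with the Apc_KO libraries. Those of adhesion partners and enterocyte markers include Ceacam20 and Slc2a2, which passed it only with the other genotypes.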

How the data were processed

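Lgr5-GFP+ intestinal cells of 3 genotypes were measured in 12 libraries, 4 each. The authors deposited 1 table of FPKM values per library, per the file headers. Bowtie, TopHat, Cufflinks, Cuffdiff and the mm10 (GRCm38) build are listed per the submitters' processing notes; versions, annotation and filters are not given in the sources used here. FPKM is already divided by length and library size, and the tables hold no counts, so depth limits the precision of low values by an unknown amount.

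Rows of a symbol were summed. Of 14499 symbols, 295 with unequal loci among the tables and 122 with a failed estimate were not used. The tests used limma (version 3.58.1, under R version 4.3.3) and took log2(FPKM + 1) values, with a trend, in 1 two-sided fit of all 12 libraries without a block; p was adjusted by Benjamini-Hochberg over 12962 genes with at least 1 FPKM in at least 4 libraries. The pseudocount of 1 understates changes of low genes. The procedure was also run on simulated data with independent normal noise and few changed genes, and the outcome is not reported here. That setting is simpler than these data, so it does not show how the procedure performs on them.

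The 10 genes and all lists were chosen with earlier results of these data known. Named genes were all 10, and from each related list the 3 called genes of largest rise and of largest fall in Apc_KO against Apc_WT and the largest against Apc_HET; from each marker list up to 2 of highest mean. Genes of like profile were the 5 of highest Pearson r. Some genes these rules picked are not reported here. Promoter letters are from RefSeq (GRCm38.p6), with none for Eps8 and Myo7b. Alternatives were pseudocounts of 0.1 and 5, no filter and one of 5 FPKM, size factors, quantile normalization, a fit of only the 2 genotypes, array weights, no trend, the replicate number as a block, the row of highest mean, and libraries left out.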

Additional observations from a re-analysis of the deposited data

Results flagged for a closer look

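In 30 groups of 4 libraries (10 genes in 3 genotypes), the highest or lowest library was compared with the others by Dixon's ratio of its gap to the group's range against the 95% critical value. Chance flags about 1 in 20 groups, and 2 were past it. Myo1a in Apc_WT replicate 4 read 257.29 FPKM (ratio 0.832), above 183 to 195 in the other 3, and this library was also the highest of Apc_WT for 9 of the 10 genes. Pdzk1 in Apc_KO replicate 1 read 2.853 FPKM (ratio 0.856), above 2.10 to 2.21 in the other 3, still below every Apc_WT and Apc_HET library.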

How the results depend on the processing

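Each result was recomputed under 21 alternatives (19 for Apc_HET against Apc_WT). With the 10 genes, 0 were called in Apc_HET against Apc_WT in all 19, and in Apc_KO against Apc_WT 7 to 9 were called, always with 2 higher. Over all genes 2560 to 3993 were called higher and 1803 to 3043 lower in Apc_KO against Apc_WT. Same-numbered deviations correlated from -0.195 to -0.066 between Apc_HET and Apc_WT and from -0.096 to 0.072 between Apc_KO and Apc_HET. Between Apc_KO and Apc_WT they ran from -0.103 to 0.18, with 3 of 4 over 0.1. In these 3 comparisons 0, 1 and 2 of 4 libraries correlated best with their own number. The replicate numbers thus gave little sign of pairing with Apc_HET, and pairing between Apc_KO and Apc_WT was not settled. With the replicate number as a block, 8 of the 10 genes were called in Apc_KO against Apc_WT and 7 against Apc_HET (adjusted p = 0.0616 for Ush1c and 0.0617 for Myo7b), with medians of -1.11 and -0.93. The number of all genes called higher in Apc_HET, 0 as reported, was 1 with a pseudocount of 0.1, in the fit of only the 2 genotypes and with array weights, and ran from 0 to 4 when 1 library was left out, being 3 without Apc_WT replicate 3 and 4 without Apc_HET replicate 4. The median of the 10 genes in Apc_KO against Apc_HET was -0.69 with a pseudocount of 5. Signs turned for values that were not called: in Apc_HET against Apc_WT, Ezr (-0.0035) and Eps8 (-0.0338) with size factors, and, with 1 library left out, Eps8 (from -0.0175 without Apc_WT replicate 2 to 0.1104) and Ush1c (from -0.1983 to 0.0692, the latter without Apc_WT replicate 4); in Apc_KO against Apc_WT, Espn, which ran from -0.2265 to 0.1321 with 1 library left out (0.1321 without Apc_WT replicate 4, 0.1073 without Apc_KO replicate 2) and was 0.2271 without Apc_KO replicates 2 and 3. The cause was not tested. The Myo7b difference from Apc_HET also missed the threshold with the 5 FPKM filter (adjusted p = 0.051), quantile normalization (0.0589), the fit of 2 genotypes (0.0703) and no trend (0.0545), and that of Ush1c was called with array weights (-0.96, adjusted p = 0.00339). Depth is unknown.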
